A study of Mus musculus with 105 samples.

Results

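The 9 genes described here were picked on measured values of these same libraries, because the difference between tumour and non-tumour liver of the mouse differed in BKO or in MKO livers from that in wild type: Reln, Apela, Adrb3, Lpar3, Prom2, Fmn1, Galnt6, Dpy19l3 and Cyp21a1. All 9 symbols were found once among the 12966 genes measured. The libraries are bulk liver RNA of mice given diethylnitrosamine (DEN), a chemical that is converted in hepatocytes to a DNA-damaging agent and produces liver tumours. Every group, wild type included, carries the DEN treatment. Sequencing group 2 holds BKO (β-catenin knockout, gene Ctnnb1), MKO (cMet knockout, gene Met) and wild type (WT), with 3 libraries at each of 1, 3 and 5 months and, at 8 months, 3 of non-tumour liver and 3 of tumour. Sequencing group 1 has the same stages with 4 libraries each for IKO (Ikk knockout), SKO (Shp2 knockout, gene Ptpn11) and its own WT. The labels tell tumour from non-tumour tissue only at 8 months. In what follows, before tumours means at 1, 3 and 5 months, and the labels do not say whether those livers were free of tumours. Per the series title the deletions are in hepatocytes, so the other cells of these livers keep the gene. The driver of the deletion, the sex and the strain of the mice are not given in the sources used here, and the labels do not say whether libraries of a group came from separate mice, so that every p-value measures the spread between libraries.

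The members belong to unlike families. Reelin is a large secreted glycoprotein that binds the receptors VLDLR and APOER2 and signals through DAB1, and stellate cells are its known source in liver. Apela encodes a short secreted peptide that, like apelin, activates the apelin receptor. Adrb3 encodes the β3-adrenergic receptor, best known from fat cells, and Lpar3 a G-protein-coupled receptor for lysophosphatidic acid. Prom2 encodes prominin-2, a membrane protein of plasma membrane protrusions, and Fmn1 encodes formin-1, which nucleates actin filaments. Galnt6 encodes an enzyme that starts mucin-type O-glycosylation, and Dpy19l3 one that attaches mannose to tryptophan of secreted and membrane proteins. Cyp21a1 encodes steroid 21-hydroxylase, the enzyme of the adrenal cortex that hydroxylates progestins on the way to corticosterone and aldosterone. β-catenin is the transcriptional effector of Wnt signalling and sets the gene programme of the hepatocytes around central veins, and cMet is the receptor for hepatocyte growth factor.

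Values below are normalised reads, that is whole reads recovered from the deposited values and divided by the library's size factor. Differences are log2 differences ± SE on the deposited log2 scale, which compresses genes with few reads. Because reads were counted at 3′ ends, 1 transcript gives about 1 read whatever its length. Calls were made with limma where the Benjamini-Hochberg adjusted p, taken over all 12966 genes, was under 0.05. Statements that the libraries of groups do not overlap are descriptions and not tests. With few libraries in a group some genes separate by chance, and the share of all genes that did so is not given here. Tests of members are given only for libraries or stages taken to be unused in their choice. The rule that picked the members names tumour effects in BKO or MKO, but not the values used. All 8-month libraries of group 2 were therefore treated as used and are described without a test.

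Libraries of group 2 held 6650086 to 20231121 reads over the listed genes and those of group 1 held 4676444 to 10863046. All 6 hepatocyte markers were detected in every group. In the library labelled SKO replicate 2 at 3 months Ptpn11 stood at 375 normalised reads, inside the WT range of 292 to 433, while the other SKO libraries lay at 107 to 197. In BKO over 1, 3 and 5 months all 16 β-catenin target genes were called lower than in WT. Among them were Lect2 by -4.29 ± 0.30 (adjusted p = 1.97e-12) and Cyp2e1 by -4.97 ± 0.43 (adjusted p = 2.35e-10). The loss of Cyp2e1 was not even over time. BKO held 78.6, 67.5 and 92.9 normalised reads at 1 month and 1056, 200 and 2362 at 5 months. In 8-month non-tumour liver BKO held 598, 3938 and 1711, nearer to but still below the 5326, 8114 and 8811 of WT. Ctnnb1 itself stood at 101 to 159 normalised reads in non-tumour BKO liver and at 92.4 to 147 in WT, and a 3′ read outside the deleted part checks nothing. In MKO at 3 months Met stood at 177, 259 and 234 normalised reads, around the 215, 219 and 239 of WT, and the groups overlapped at 1 month too. MKO lay below WT without overlap at 5 months (147 to 216 against 254 to 272), in 8-month non-tumour liver (148 to 164 against 188 to 273) and in tumours (118 to 152 against 173 to 227).

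**Figure D1:**
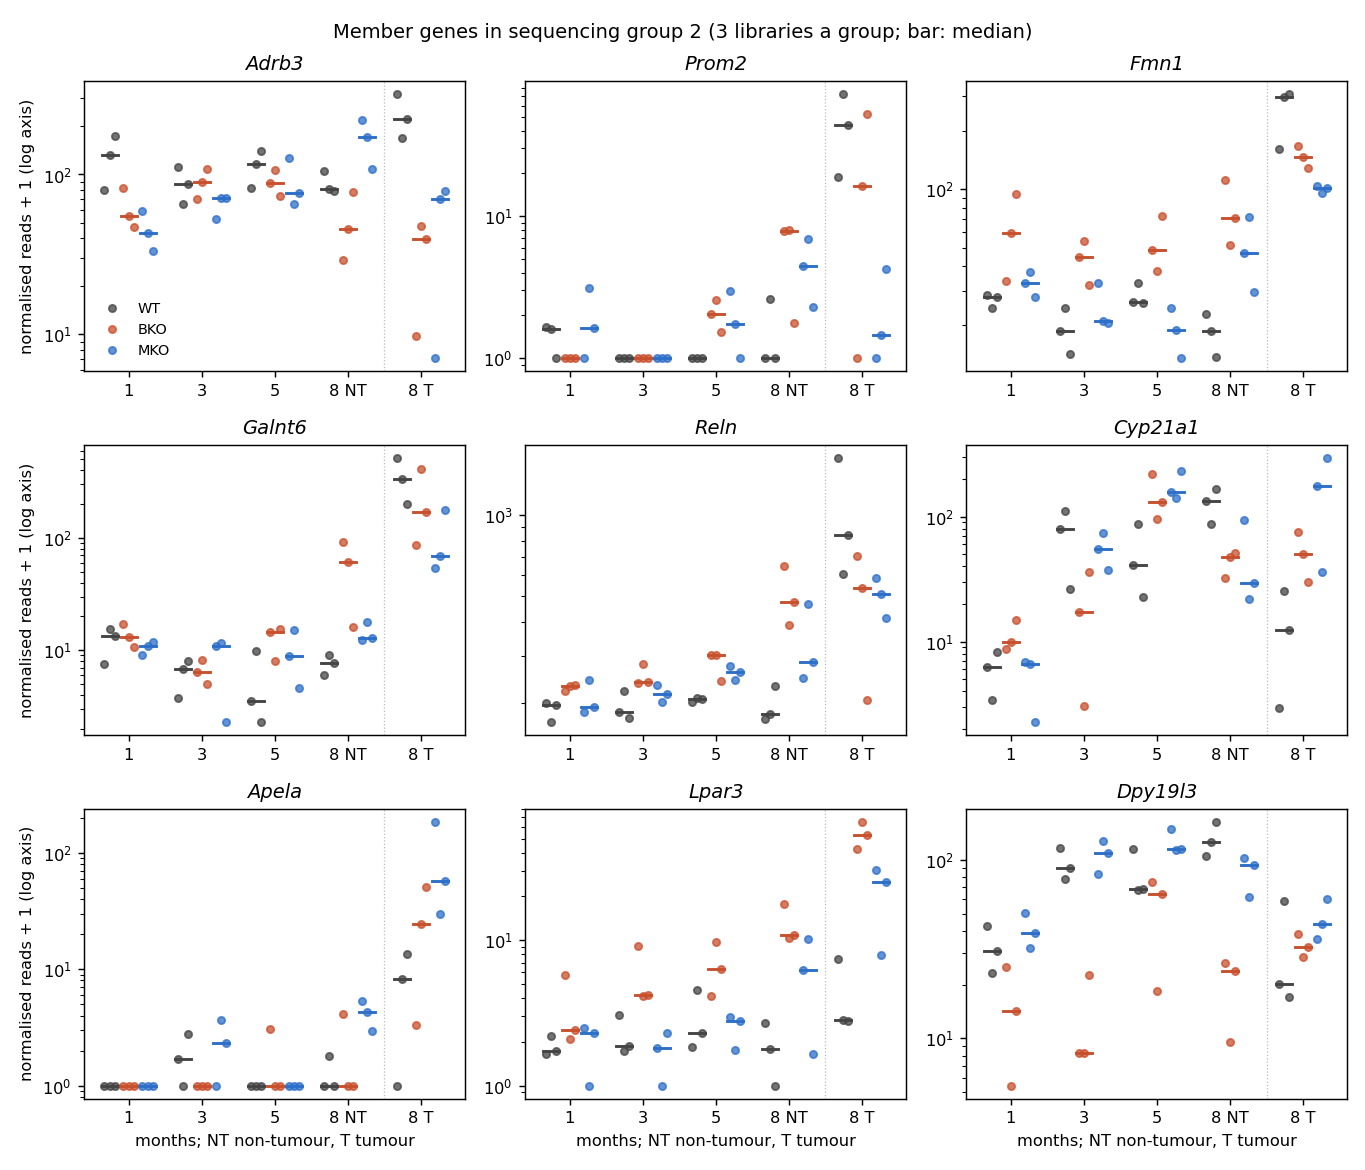
Normalised reads plus 1 (log axis) of the 9 genes in every library of sequencing group 2, by month and tissue; points are libraries, bars medians of 3, and colours WT, BKO and MKO. Galnt6, Fmn1 and Reln rise steeply from non-tumour to tumour liver in WT, while in both BKO and MKO all non-tumour libraries at 8 months lie above those of WT for these 3 genes.

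Reln, the ligand, had a tumour difference in WT that was not seen in BKO. WT non-tumour liver at 8 months held 173, 182 and 229.9 normalised reads of Reln and WT tumours 1630, 601 and 846. BKO non-tumour liver held 646, 389 and 475 and BKO tumours 704, 533 and 204. The WT tissues did not overlap, whereas the BKO tissues did. The tumour effect was 2.13 ± 0.27 in WT and -0.19 ± 0.27 in BKO, a difference of -2.32 ± 0.38. Taken by replicate number, BKO tumour minus non-tumour was 0.12, 0.43 and -1.12. The difference from WT was made up of a higher BKO level in non-tumour liver (1.24 ± 0.27) and a lower one in tumours (-1.09 ± 0.27). Without BKO tumour replicate 3, the lowest of the 3, the difference was -1.83. In MKO, Reln stood at 248, 465 and 283 in non-tumour liver and at 583, 507 and 413 in tumours, all tumours below all WT tumours.

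Apela, the other ligand, had 0 reads in most libraries before tumours. WT tumours held 0, 7.30 and 12.6 normalised reads, BKO tumours 2.33, 23.7 and 50.2, and MKO tumours 184, 29.0 and 56.4. All MKO tumours were above all WT tumours, and BKO tumours overlapped with WT. On the log2 scale MKO tumours exceeded WT tumours by 2.01 ± 0.33, and by 1.45 without MKO replicate 1.

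The receptors moved apart. Adrb3 in WT stood at 105, 80.7 and 78.3 in non-tumour liver and at 317, 167 and 221 in tumours. In MKO the order was turned, with 218, 169.5 and 108 in non-tumour liver and 6.10, 69.1 and 77.8 in tumours. The WT and MKO tissues each separated without overlap and in opposite directions, with tumour effects of 1.17 ± 0.35 in WT and -1.53 ± 0.35 in MKO. BKO had little Adrb3 in either tissue at 8 months, at 28.0, 44.3 and 76.2 in non-tumour liver and 8.72, 46.3 and 38.3 in tumours.

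Lpar3 was near the limit of detection in WT, at 1.68, 0.799 and 0 in non-tumour liver and 6.42, 1.83 and 1.79 in tumours. BKO non-tumour liver held 16.8, 9.32 and 9.91 and BKO tumours 41.3, 64.2 and 51.8 normalised reads. Every BKO library was thus above every WT library of the same tissue. MKO tumours, at 29.5, 6.91 and 24.0, also lay above the WT tumours. Lpar3 differed from WT in BKO tumours by 1.79 ± 0.21 and in BKO non-tumour liver by 0.99 ± 0.21, so that its tumour effect in BKO differed from WT by only 0.80 ± 0.29.

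Prom2, the membrane protein, was close to absent before tumours and appeared in WT tumours at 18.0, 71.2 and 43.0 normalised reads. MKO tumours held 0, 0.461 and 3.24, all below the WT tumours, and MKO non-tumour liver 3.47, 5.87 and 1.31. BKO tumours were spread over 0, 15.3 and 51.8. The difference of the tumour effect was -2.41 ± 0.44 in MKO and -1.51 ± 0.44 in BKO, and the BKO value came to -0.87 without BKO tumour replicate 1, the library with 0 reads.

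Fmn1, the actin nucleator, stood at 21.8, 17.6 and 12.6 in WT non-tumour liver and at 159, 298 and 307 in WT tumours. In BKO it stood at 111, 50.5 and 70.1 and at 166, 145 and 128. In MKO it stood at 45.9, 71.1 and 28.7 and at 102, 94.9 and 99.8. Tumours exceeded non-tumour liver without overlap in all 3 genotypes, by 2.75 ± 0.23 in WT, 0.78 ± 0.23 in BKO and 0.81 ± 0.23 in MKO. In BKO most of the gap came from non-tumour liver (1.31 ± 0.23 above WT) and less from tumours (-0.66 ± 0.23).

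Among the enzymes, Galnt6 had the widest tumour effect in WT. It stood at 5.03, 7.99 and 6.74 in WT non-tumour liver and at 514, 334 and 200 in WT tumours. BKO non-tumour liver held 91.0, 60.6 and 15.2, all above WT, and BKO tumours 85.4, 414 and 168, so that the BKO tissues overlapped. MKO stood at 11.3, 17.0 and 11.8 and at 53.4, 68.2 and 177, with every tumour below every WT tumour. The differences of the tumour effect were alike in size, -2.14 ± 0.50 in BKO and -2.0 ± 0.50 in MKO, while the parts differed. BKO non-tumour liver exceeded WT by 1.40 ± 0.36 and MKO non-tumour liver by 0.38 ± 0.36, and their tumours lay at -0.74 ± 0.36 and -1.62 ± 0.36 against WT tumours.

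Dpy19l3, like Cyp21a1 below, had a lower level in WT tumours than in WT non-tumour liver. WT non-tumour liver held 104, 125 and 163 and WT tumours 19.3, 57.8 and 16.1. BKO held 25.6, 8.55 and 22.9 in non-tumour liver and 37.2, 27.4 and 31.6 in tumours, so that BKO tumours were above BKO non-tumour liver and inside the range of WT tumours. The difference of the tumour effect in BKO, 2.03 ± 0.40, therefore came from non-tumour liver (-1.91 ± 0.28) and not from tumours (0.12 ± 0.28). In MKO the tissues kept the WT order, at 101, 61.3 and 92.0 against 35.1, 42.9 and 59.6.

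Cyp21a1 stood at 132, 86.3 and 164 in WT non-tumour liver and at 1.93, 24.4 and 11.4 in WT tumours. MKO tumours held 174, 35.0 and 294, all above all WT tumours, and MKO non-tumour liver 92.7, 20.9 and 28.7. BKO stood at 31.2, 46.6 and 50.3 and at 73.8, 49.0 and 29.0, with overlap. The difference of the tumour effect was 3.48 ± 0.63 in MKO, the widest of the 18 differences of the tumour effect over the 9 members and both knockouts, and 2.35 ± 0.63 in BKO. Cyp21a1 lies at chr17:34801348-34804561 on the minus strand (GRCm38), overlaps the pseudogene Tnxa on the opposite strand, and has a near copy in Cyp21a2-ps, 79096 bases away. Its reads are uncertain for that reason, since the strand setting of the counting is not given in the sources used here. Cyp21a2-ps held at most 10.6 normalised reads in any of the 105 libraries. Of 6 adrenal cortex markers listed only 2, Cyp11a1 and Star, were measured. Together they stayed between 4.07 and 21.7 in the 8-month libraries of group 2, and a part of adrenal tissue in the Cyp21a1 values was not tested.

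The rule set no numeric limit. Over both knockouts the differences of the tumour effect ranged in size from 0.41 ± 0.29 (Lpar3 in MKO) to the 3.48 of Cyp21a1. Of all genes measured, 0.0308% of genes were called for this difference in BKO and 0.131% in MKO, and among tumours compared directly 0.548% and 4.03% were called against WT in BKO and MKO.

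**Figure D2:**
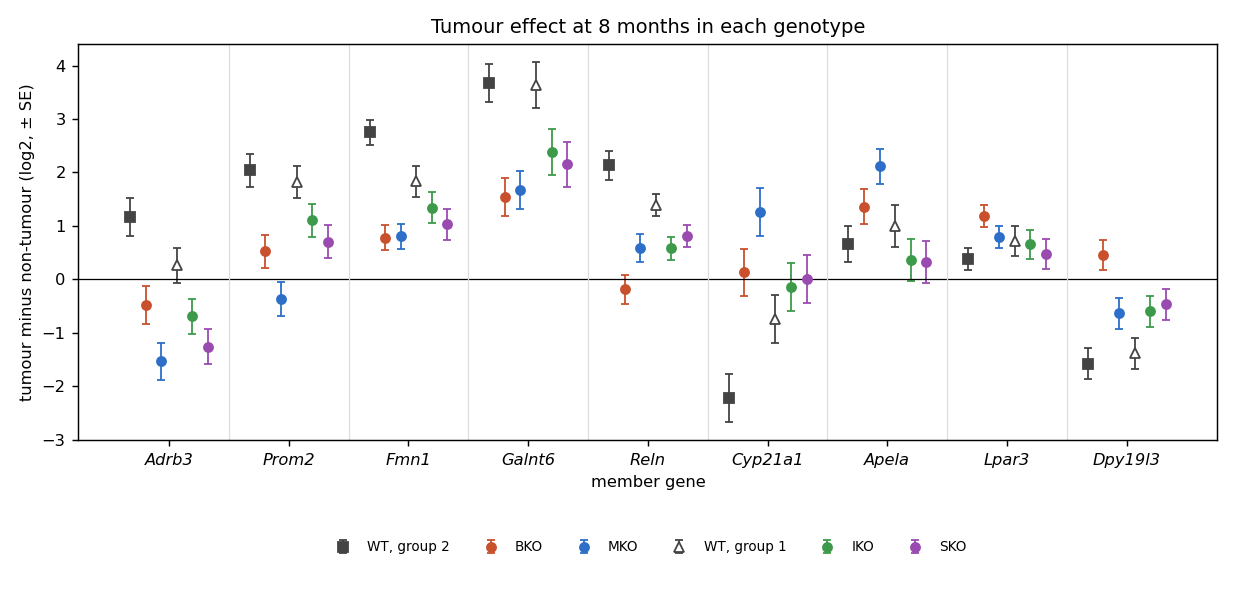
Tumour minus non-tumour log2 difference (± SE from limma) at 8 months for the 9 genes in the 6 genotype sets; squares are WT of group 2, open triangles WT of group 1, circles knockouts. WT of both sequencing groups lie at 3.68 and 3.64 for Galnt6 and at -1.58 and -1.38 for Dpy19l3, and the tumour effect of Reln in BKO (-0.19) lies next to 0.

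Markers of other cells differed between the same tumours. In MKO tumours 4 of 7 Kupffer cell and macrophage markers were called higher than in WT tumours, with a summed level of 2758 to 4592 against 667 to 1228 normalised reads. In stellate cells and fibroblasts, a known source of reelin, 3 of 11 markers were called higher in MKO tumours (sum 3498 to 5201 against 1698 to 2369) and 1 of 11 in BKO tumours (sum 2692 to 2997). Of 6 cholangiocyte and progenitor markers 2, Krt7 and Krt19, were called higher in both, with sums of 718 to 3227 in MKO, 928 to 1968 in BKO and 824 to 839 in WT tumours. No hepatocyte marker was called in either. In BKO and MKO non-tumour liver at 8 months the stellate sum was 4322 to 4736 and 2559 to 4616, against 2501 to 2657 in WT. The 4 fat cell markers measured summed to 122 to 763 in MKO, 72.0 to 219 in BKO and 54.8 to 346 in WT tumours, with Adipoq at 0 in every MKO and WT tumour library and none of the 4 called against WT. In bulk liver, fewer cells of a type and less RNA per cell cannot be told apart, and the part of these cells in the members' values was not tested.

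The livers of 1, 3 and 5 months, which were taken to have had no part in the choice, addressed whether the members differed at these stages. In BKO 2 of the 9 members were called against WT over these stages, where 13.0% of all genes were called: Fmn1 rose and Dpy19l3 fell. Fmn1 in WT held 27.6, 23.4 and 27.0 normalised reads at 1 month, 17.7, 23.4 and 13.2 at 3 months and 25.3, 31.9 and 24.9 at 5 months. In BKO it held 32.6, 58.7 and 93.6, then 43.6, 52.9 and 31.2, then 47.7, 37.0 and 72.1. At each stage all BKO libraries lay above all WT libraries, and the share of all genes that separated likewise is not given. The difference over the stages was 0.67 ± 0.13 (adjusted p = 5.85e-04), with no stage called on its own.

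Dpy19l3 in WT held 41.3, 22.2 and 29.9 normalised reads at 1 month, 116, 77.4 and 88.8 at 3 months and 115, 66.4 and 67.5 at 5 months. In BKO it held 24.0, 4.43 and 13.3, then 7.26, 7.26 and 21.6, then 74.6, 17.3 and 63.0. The groups separated at 3 months and overlapped at 1 and 5 months. Over the stages Dpy19l3 fell by 1.03 ± 0.16 on the log2 scale (adjusted p = 2.82e-05), and at 3 months alone by 1.84 ± 0.28 (adjusted p = 7.43e-05), where 1.54% of genes were called. At 1 and 5 months no member was called, with 4.37% and 6.44% of all genes called there.

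Reln was higher in every BKO library than in every WT library of its stage, at 222 to 232 against 169.6 to 199.5 at 1 month, 238 to 279 against 176 to 222 at 3 months and 240.2 to 302 against 201.4 to 209 at 5 months. The difference of 0.33 ± 0.15 was not called in the fit over all group 2 libraries (adjusted p = 0.165). Fitted on the 1, 3 and 5-month libraries of BKO and WT alone it was called (adjusted p = 0.00209), as was Lpar3 at 0.33 (0.0172 against 0.0604 in the full fit), so that 4 of 9 members were called there in place of 2. Lpar3 was also called in the full fit without BKO 5-month replicate 1 (adjusted p = 0.0487) and without WT 5-month replicate 2 (adjusted p = 0.0476). The other 5 members were not called, with differences from -0.35 (Adrb3) to 0.22 (Galnt6).

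Markers moved over these stages too. Of 11 stellate and fibroblast markers 9 were called higher in BKO, with a sum of 3695 to 5117 normalised reads against 2244 to 3803 in WT, as were 2 of 6 cholangiocyte and progenitor markers (Sox9 by 1.19 ± 0.18, adjusted p = 1.19e-05) and 1 of 7 macrophage markers (Trem2). The hepatocyte marker Apoa1 was called higher by 0.54 ± 0.13 (adjusted p = 0.00541). Their part in the rise of Fmn1 and the level of Reln was not tested.

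In MKO no member was called over 1, 3 and 5 months, where 1.33% of all genes were called. One member, Adrb3, had an unadjusted p below 0.05, and limma-voom on the recovered reads also called 0 members. Adrb3 held 58.3, 42.2 and 32.0 normalised reads in MKO at 1 month against 79.4, 132 and 174 in WT, without overlap, and the groups overlapped at 3 and 5 months. Its difference over the stages was -0.58 ± 0.20 (adjusted p = 0.157), and -0.58 with an adjusted p of 0.0302 when only the libraries compared were fitted. Cyp21a1 at 5 months held 157, 139.7 and 231 in MKO and 218, 94.6 and 130.3 in BKO against 40.5, 86.7 and 21.6 in WT, above WT in every library. It was called in neither at that stage, with a difference of 1.52 ± 0.45 in MKO (adjusted p = 0.188). Reln in MKO also lay above WT at 5 months, at 243 to 274. Fmn1 in MKO lay below WT at 5 months, at 12.52 to 23.55 against 24.91 to 31.86, while BKO lay above WT. At 1 and 3 months MKO and WT overlapped, at 26.92 to 36.58 against 23.37 to 27.56 and 19.57 to 31.91 against 13.19 to 23.36. The hepatocyte marker Alb was called lower in MKO over these stages (-1.10 ± 0.16, adjusted p = 1.73e-04), and its part was not tested. No member was called for a knockout difference that varied with stage, in BKO (0.255% of genes called) or in MKO (0.0154%). Unadjusted p below 0.05 were seen for 2 members in BKO, Cyp21a1 and Dpy19l3, and 1 in MKO, Cyp21a1.

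**Figure D3:**
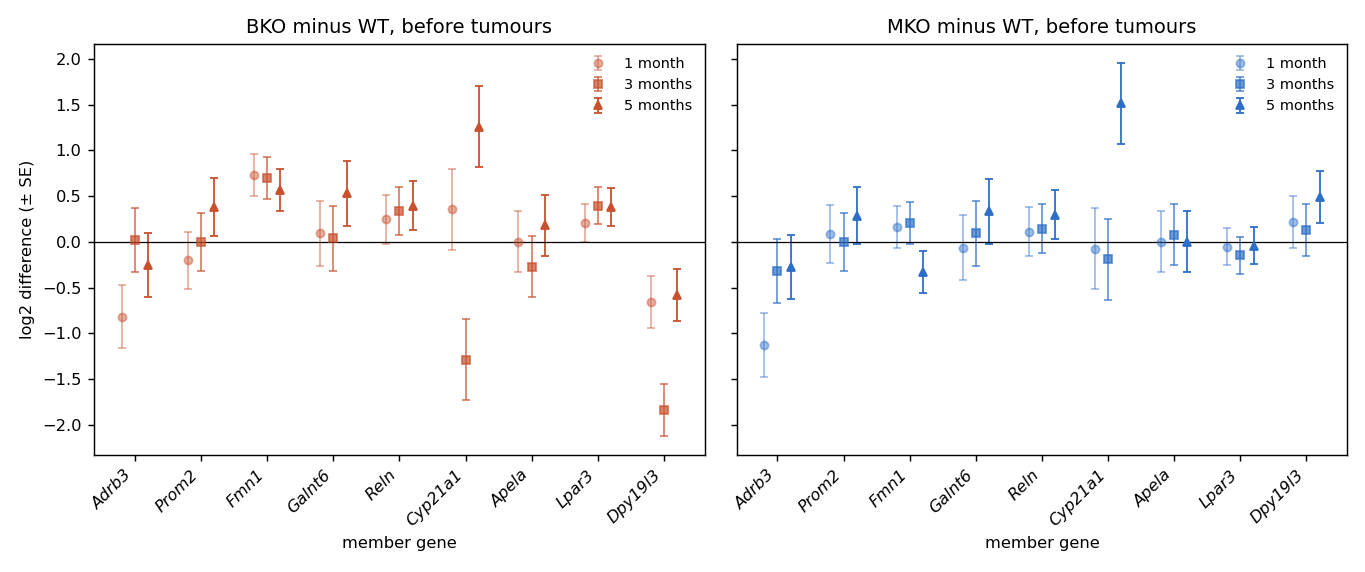
Log2 difference from WT (± SE from limma) of the 9 genes at 1, 3 and 5 months, BKO on the left and MKO on the right; each symbol is 1 stage with 3 libraries a group. Fmn1 lies above 0 at all stages in BKO and Dpy19l3 below, deepest at 3 months (-1.84).

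For the 2 members that changed in BKO before tumours, the stretch before the annotated start of transcription is shown, because β-catenin acts on promoters and enhancers through TCF/LEF factors. RefSeq promoters of GRCm38.p6, 250 bases before to 50 after the start, were found for 7 of the 9 members in 9 entries (Fmn1 and Galnt6 have 2). The 150 bases before the start and the first transcribed base, in capitals, read 5′ to 3′ for Fmn1 (chr2:113327586-113327736, plus strand) and Dpy19l3 (chr7:35754454-35754604, minus strand).
Fmn1: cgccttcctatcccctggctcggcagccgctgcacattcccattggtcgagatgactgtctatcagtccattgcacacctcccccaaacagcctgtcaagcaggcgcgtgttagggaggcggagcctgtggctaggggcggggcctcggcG
Dpy19l3: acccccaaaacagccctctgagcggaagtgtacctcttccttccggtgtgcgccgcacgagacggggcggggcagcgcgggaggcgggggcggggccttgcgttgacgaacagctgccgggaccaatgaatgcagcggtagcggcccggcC
The stretches hold 64.0% and 70.0% G and C. The TCF/LEF core CTTTGA and the AP-1 motif TGANTCA, searched on both strands over the full 300 bases, were found in 0 of the 9 entries. Of all 32851 RefSeq promoters of that length 16.0% hold the first and 7.81% the second. Only these exact letters were searched, so that other forms of the TCF/LEF core, such as CTTTGT, were not counted. Enhancers and sites outside these windows were not searched.

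Sequencing group 1, with its own WT libraries, gave a separate measure of the tumour difference in WT. Between WT tumour and non-tumour liver 7 of the 9 members were called, where 42.1% of all genes were called, and the median over the members was 0.99 against 0.04 over all genes. Galnt6 stood at 1.07, 0, 6.70 and 18.8 in non-tumour liver and at 630, 174, 322 and 136 in tumours, a rise of 3.64 ± 0.43 (adjusted p = 8.53e-10). Fmn1 went from 26.6, 24.4, 42.9 and 101 to 209, 184, 358 and 153 (1.83 ± 0.29, adjusted p = 8.03e-07). Both genes separated the tissues without overlap, and the share of all genes that did so is not given.

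Prom2 stood at 2.13, 2.44, 1.34 and 46.9 in WT non-tumour liver and at 58.3, 128, 73.2 and 48.3 in tumours, a rise of 1.82 ± 0.30 (adjusted p = 2.15e-06). The non-tumour value of 46.9 belongs to replicate 4, which also held the highest Fmn1 and Galnt6 of its group. Reln rose by 1.39 ± 0.21 (adjusted p = 3.00e-07), from 312, 231, 358 and 369 to 445, 1018, 1083 and 1112. Dpy19l3 fell by 1.38 ± 0.29 on the log2 scale (adjusted p = 1.10e-04), from 114, 118, 100.5 and 53.6 to 21.5, 18.0, 13.6 and 39.8. In each of these 3 genes all tumours lay on one side of all non-tumour libraries, again without the share of all genes beside it.

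Apela and Lpar3 passed the threshold narrowly. Apela went from 0, 1.22, 1.34 and 1.34 to 44.5, 18.0, 1.24 and 7.24 (0.99 ± 0.39, adjusted p = 0.0373), and Lpar3 from 0, 2.44, 0 and 2.68 to 23.0, 0, 2.48 and 24.1 (0.72 ± 0.28, adjusted p = 0.0312). The tissues overlapped for both. The call of Apela was lost without non-tumour replicate 1, 2 or 3 or tumour replicate 1 or 2 (adjusted p = 0.0518 to 0.202), and that of Lpar3 without non-tumour replicate 1 or 3 or tumour replicate 1 or 4 (adjusted p = 0.0978 to 0.193). Adrb3 (0.26 ± 0.33, adjusted p = 0.554) and Cyp21a1 (-0.74 ± 0.45, adjusted p = 0.182) were not called.

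**Figure D4:**
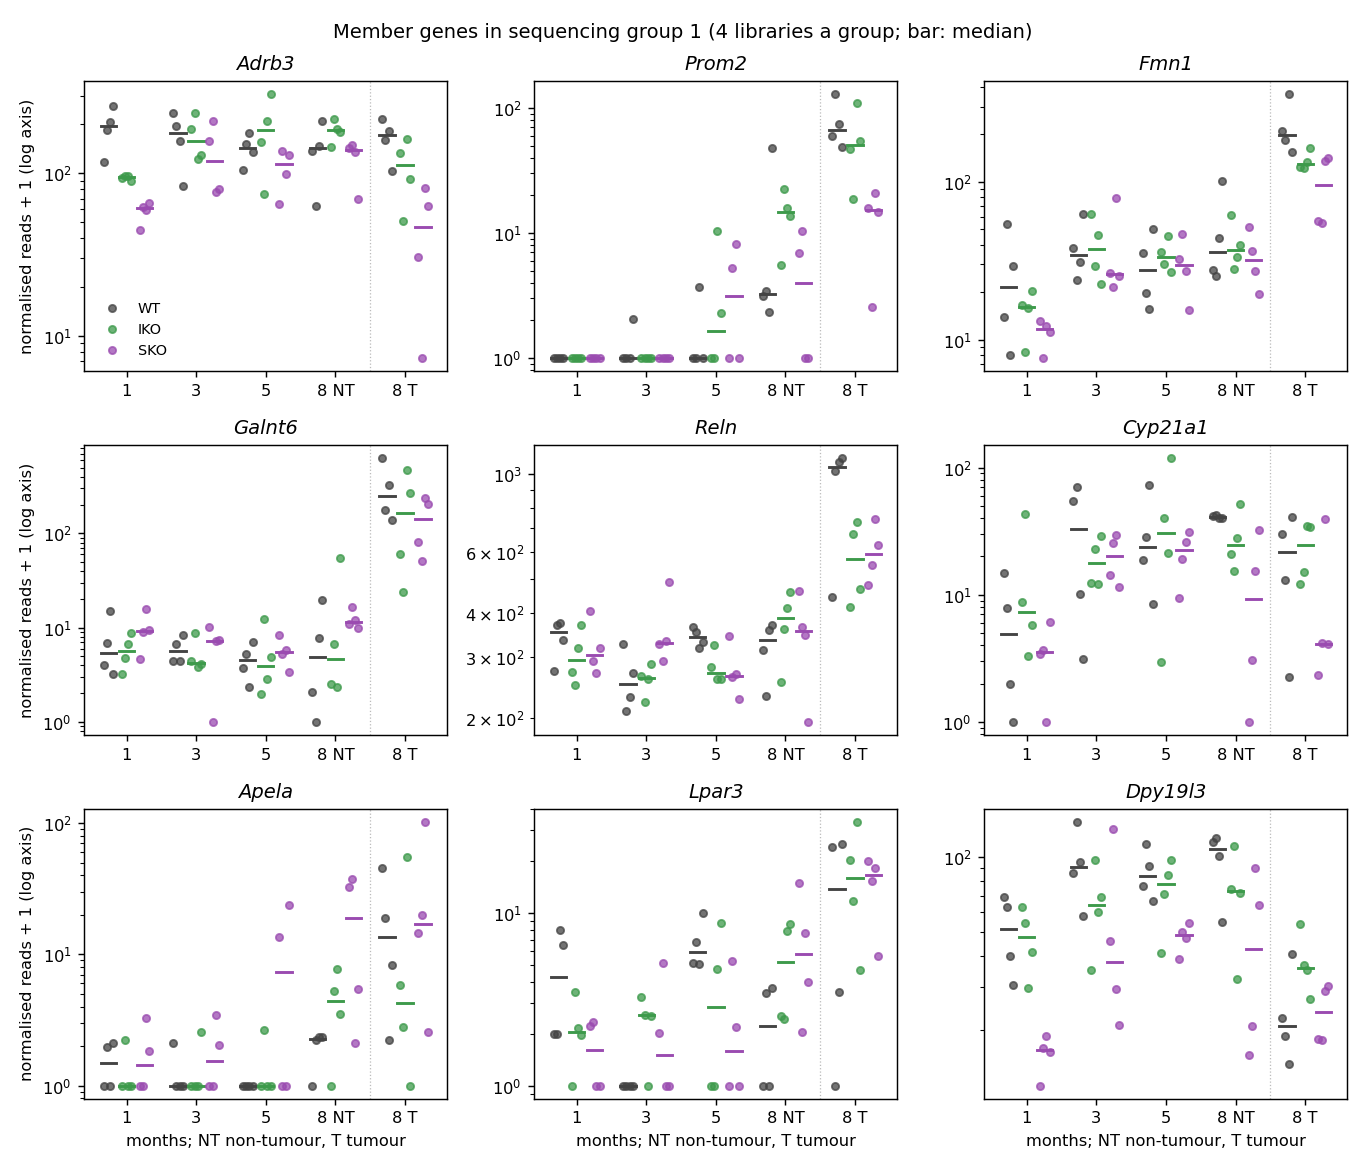
Normalised reads plus 1 (log axis) of the 9 genes in every library of sequencing group 1, by month and tissue; points are libraries, bars medians of 4, and colours WT, IKO and SKO. Galnt6, Fmn1 and Reln are on average higher in tumours than in non-tumour liver in WT, IKO and SKO, with overlap in IKO for Galnt6 and Reln. Adrb3 of SKO tumours lies at 6.30 to 80.4, below all WT tumours.

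The same comparison in IKO called 4 members (33.3% of all genes) and in SKO 4 members (39.7%). In IKO, Galnt6 (2.38 ± 0.43, adjusted p = 1.79e-05), Fmn1 (1.34 ± 0.29, 2.71e-04), Prom2 (1.10 ± 0.30, 0.00356) and Reln (0.58 ± 0.21, 0.0270) rose. Tumours and non-tumour liver of IKO overlapped for Galnt6 (23.09 to 472 against 1.359 to 54.23) and Reln (416.4 to 727.7 against 253.5 to 460.3). Prom2 overlapped too (17.76 to 108.8 against 4.581 to 21.34), and Fmn1 did not. The Reln call was lost without IKO non-tumour replicate 1 or 2 or tumour replicate 2 or 3 (adjusted p = 0.0539 to 0.147). Lpar3 was called without IKO non-tumour replicate 4 or tumour replicate 4 (0.0495 and 0.0178), and Dpy19l3 without non-tumour replicate 3 (0.0299).

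In SKO, Galnt6 (2.15 ± 0.43, adjusted p = 5.20e-05), Fmn1 (1.03 ± 0.29, 0.00328) and Reln (0.81 ± 0.21, 0.00146) rose, and Adrb3 fell by 1.26 ± 0.33 on the log2 scale (adjusted p = 0.00147). SKO non-tumour liver held 142, 149.5, 134 and 69.0 normalised reads of Adrb3 and SKO tumours 29.6, 6.30, 80.4 and 61.6, with overlap. Prom2 in SKO (0.71 ± 0.30, adjusted p = 0.0569) was called without non-tumour replicate 1 or 2 or tumour replicate 2 (adjusted p = 0.0141 to 0.0365).

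Compared directly, SKO tumours had 3 members called lower than WT tumours, where 1.72% of all genes were called. Adrb3 held 215, 159, 181 and 103 in WT tumours (-1.61 ± 0.33, adjusted p = 0.00204). Prom2 held 14.8, 1.58, 19.8 and 13.9 in SKO tumours (-1.58 ± 0.30, adjusted p = 0.00106), against the WT values above. Fmn1 held 55.2, 53.6, 134 and 140 (-1.08 ± 0.29, adjusted p = 0.0364). In all 3 genes, which were already called, every SKO tumour lay below every WT tumour. How many of all genes separated likewise is not given.

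These calls depended on how the spread was estimated. Fitted on the 8 tumour libraries alone, none of the 3 was called (adjusted p = 0.185, 0.0742 and 0.268 for Adrb3, Prom2 and Fmn1), and over all genes 33 were called in place of 223. Fmn1 also lost its call without SKO replicate 1 or 2 or WT replicate 1, 2 or 3 (adjusted p = 0.0516 to 0.204), and Reln gained one without WT replicate 1 (0.0148). Of 7 macrophage markers 3 were called higher in SKO tumours (summed level 1521 to 2056 against 624 to 1034 normalised reads in WT tumours), and no hepatocyte marker was called. Their part was not tested.

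IKO tumours had 0 members called against WT tumours (3.6% of all genes called). Reln, Galnt6 and Fmn1 had an unadjusted p below 0.05, all lower in IKO, and limma-voom also called 0. Reln was called without WT replicate 1 (adjusted p = 0.00283) and Galnt6 without IKO replicate 3 (adjusted p = 0.0370).

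The change of the tumour effect itself, the measure behind the choice of members in group 2, was tested in group 1. Group 1 was taken to have had no part in that choice. No member was called for IKO (0.123% of all genes called) or for SKO (0.0308%), and limma-voom called 0 as well. At an unadjusted p below 0.05 there were 3 members in IKO, Adrb3, Galnt6 and Reln, and 4 in SKO, Adrb3, Prom2, Galnt6 and Dpy19l3. The SKO values were -1.52 ± 0.46 for Adrb3 (adjusted p = 0.158), -1.11 ± 0.43 for Prom2 (0.293), -1.49 ± 0.61 for Galnt6 (0.318) and 0.92 ± 0.41 for Dpy19l3 (0.382). The IKO value of Reln was -0.81 ± 0.29 (adjusted p = 0.342), called at -1.11 without WT tumour replicate 1 (adjusted p = 0.0414). Prom2 in SKO was called at -1.57 without WT non-tumour replicate 4 (adjusted p = 0.0487). The IKO and SKO comparisons share their WT libraries.

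In non-tumour liver over all 4 stages SKO had 2 members called lower, where 22.9% of all genes were called, and IKO none (9.04% of genes, 0 members with an unadjusted p below 0.05, and 0 called by limma-voom). Dpy19l3 fell in SKO by 0.80 ± 0.15 on the log2 scale (adjusted p = 3.49e-05). At 1 month it held 11, 16.0, 18.0 and 15.3 normalised reads in SKO and 68.3, 61.8, 38.8 and 29.6 in WT, without overlap. At 3 months SKO held 44.9, 129, 28.3 and 20, where 129 is the library with the WT level of Ptpn11. Without that library the fall was 0.89 (adjusted p = 9.15e-07).

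In the same non-tumour livers Adrb3 fell by 0.53 ± 0.16 (adjusted p = 0.0129) and by 0.59 without the library named above (adjusted p = 0.0053). At 1 month SKO held 43.8, 61.1, 58.6 and 64.6 against 116, 185, 206 and 259 in WT, again without overlap. IKO at 1 month also lay below these WT libraries, at 89.4 to 95.1. At 3, 5 and 8 months both knockouts overlapped with WT. Over these stages 4 of 6 hepatocyte markers were called lower in SKO (Alb by -1.09 ± 0.15) and 7 of 7 macrophage markers higher, and their part in these falls was not tested. Apela stood at 0 to 1.34 in WT and reached 36.3 in SKO at 8 months. Its difference of 0.49 ± 0.20 was not called (adjusted p = 0.0675) but was called without SKO 5-month replicate 2 or 3 or SKO 8-month replicate 3 (adjusted p = 0.0310 to 0.0396) and when only the groups compared were fitted (0.0230).

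WT liver of group 1 had 2 members called in 8-month non-tumour liver against 1 month, both higher, where 7.0% of all genes were called. Every library carries DEN and the labels give only months, so age and time since DEN cannot be told apart. Cyp21a1 went from 13.9, 6.86, 0.995 and 0 to 40.5, 41.4, 38.9 and 38.9 (1.51 ± 0.45, adjusted p = 0.0287), without overlap. Prom2 went from 0 in all 4 libraries to the values given above (0.99 ± 0.30, adjusted p = 0.0356), and without replicate 4 at 8 months its difference was 0.53 (adjusted p = 0.280). Its call was also lost without any one of the 1-month libraries (0.0542 to 0.0796), and that of Cyp21a1 without 1-month replicate 3 or 4 or 8-month replicate 1, 2 or 3 (0.0539 to 0.116).

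In WT of group 2 no member was called at 5 against 1 month (1.57% of all genes called, and 0 members by limma-voom). Cyp21a1 (1.48 ± 0.45, adjusted p = 0.0787) and Dpy19l3 (0.96 ± 0.28, adjusted p = 0.0741) had unadjusted p below 0.05. Cyp21a1 held 5.25, 2.40 and 7.29 at 1 month, below every WT library at 3 and 5 months.

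The partners of the members were counted from lists for each pathway, members left out. In BKO before tumours, where 13.0% of all genes were called, 4 of 9 measured genes of lysophosphatidic acid signalling were called, among them the lipid phosphate phosphatases Plpp2 (0.73 ± 0.10, adjusted p = 2.43e-06) and Plpp3 (-0.71 ± 0.11, adjusted p = 2.52e-05) in opposite directions and Enpp2, which encodes autotaxin, the enzyme that makes the lipid (0.57 ± 0.17, adjusted p = 0.0212). Of 9 reelin pathway genes 1 was called, the receptor gene Vldlr, which fell by 1.09 ± 0.15 (adjusted p = 3.84e-06). The medians of these lists were 0.15 and 0.06, against 0.01 over all genes.

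Of 13 formin genes and partners Daam2 rose (0.50 ± 0.10, adjusted p = 5.00e-04), and of 8 adrenergic genes Adra1a fell by 0.52 ± 0.15 (adjusted p = 0.0182) and Arrb1, which encodes a β-arrestin, rose. Of 11 corticosteroid genes Nr5a2 and H6pd fell, by 0.30 ± 0.08 and 0.32 ± 0.09 (adjusted p = 0.0144 and 0.0157). Of 10 O-glycosylation genes Galnt1 rose and of 7 prominin and protrusion genes Ezr rose (0.28 ± 0.08 and 0.48 ± 0.15, adjusted p = 0.0240 and 0.0334). Of 12 genes of C-mannosylation and its substrates C8a and C8b, which encode chains of complement component 8, rose in BKO and none fell. In MKO before tumours, 1 gene of these partner lists was called, C8a, which fell by 0.41 ± 0.11 (adjusted p = 0.0457). The apelin receptor and apelin were called in neither knockout.

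In WT tumours of group 1 the partners moved in more than one direction. Both Apln and Aplnr rose (0.96 ± 0.25 and 0.59 ± 0.23, adjusted p = 0.00140 and 0.0312). Of 9 lysophosphatidic acid genes 4 rose, led by the receptor gene Lpar2 (1.90 ± 0.24, adjusted p = 8.16e-09), and 2 fell. Of 7 prominin and protrusion genes Prom1, a stem cell and progenitor surface marker, rose most (2.697 ± 0.28, adjusted p = 2.47e-11). With 42.1% of all genes called in this comparison, shares near that are no result about a list. Of 10 O-glycosylation genes 2 rose and 1 fell, and of 13 formin genes 5 rose and 4 fell. Of 12 C-mannosylation genes 2 rose and 6 fell, among them Dpy19l1, a paralogue of Dpy19l3 (-1.20 ± 0.15, adjusted p = 8.23e-09). Of 11 corticosteroid genes 2 rose and 2 fell.

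In group 2 tumours few partners were called against WT. In MKO these were Ezr (1.40 ± 0.26, adjusted p = 0.00250), Src (0.78 ± 0.18, adjusted p = 0.0113), Dab2, Arrb1 and Cfp, all higher, and in BKO Ezr alone (1.12 ± 0.26, adjusted p = 0.0368). Ezr encodes ezrin, which links actin to the membrane. No partner of the 9 member lists was called for a changed tumour effect in BKO or MKO. Among 16 liver tumour and oncofetal genes H19 was called lower in BKO and MKO tumours (-4.19 ± 0.98 and -4.01 ± 0.98, adjusted p = 0.0352 and 0.0161), and the median of that list was -0.06 in BKO and 0.18 in MKO.

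Over the 30 group means, each set against the mean of its sequencing group, the genes with the closest pattern to a member were found. For Galnt6 these were Phgdh (Pearson r = 0.97) and Smox (r = 0.97), and for Fmn1 they were Fst (r = 0.95) and Tstd1 (r = 0.93). Apela was closest to Exoc6b (r = 0.92) and St14 (r = 0.91), Reln to Rarg (r = 0.92) and Cacna1b (r = 0.92), and Prom2 to Nfe2 (r = 0.91) and Cst8 (r = 0.91). The 6 tumour groups carry much of these values: over the 24 non-tumour groups alone the r of Galnt6 and Phgdh was 0.71 and that of Prom2 and Nfe2 was 0.51.

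The remaining members had looser neighbours. Lpar3 was closest to Rap1gap and C1qtnf1 (r = 0.87 for both), Dpy19l3 to Cyb5a (r = 0.84) and Npr2 (r = 0.83), and Adrb3 to Cwf19l1 (r = 0.82) and Prox1os (r = 0.63). Cyp21a1 was closest to C4a (r = 0.71, and 0.90 over the non-tumour groups) and Tiam2 (r = 0.70). C4a lies 4531 bases from Cyp21a1 on the same strand. It held 771 to 902 normalised reads in WT non-tumour liver of group 2 at 8 months, 128 to 320.1 in BKO and 126 to 619 in MKO, and 10.9 to 311, 33.1 to 119 and 44.7 to 196 in the tumours of these genotypes. These correlations are descriptions over groups that share libraries' depth and stage.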

How the data were processed

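Liver RNA was measured by 3′-end counting of polyadenylated transcripts in 105 libraries, 60 in sequencing group 1 and 45 in sequencing group 2. The authors deposited log2 values after a variance-stabilising transform. STAR 2.7.10a, HTSeq 2.0.2, DESeq2 1.32.0 and the mouse build GRCm38 (mm10) are named in the submitters' processing notes. In the deposited table a gene with 0 reads holds 3.8289. Undoing the transform gave whole reads, within 0.05 of a read, for 100.0% of values up to 200 reads. Normalised reads are these reads divided by the library's size factor. Replicates differed by more than sampling noise (lowest chi-square per gene 4.924 over 135 pairs), so none were merged.

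The log2 values of each sequencing group were fitted on their own with limma 3.58.1 in R 4.3.3, with 1 mean per group and a trended empirical Bayes spread, after a test on simulated data. No replicate block was used. Deviations of same-numbered libraries correlated above 0.1 in every pair for BKO tumour against non-tumour liver (r = 0.240 to 0.349) and for MKO against WT non-tumour liver at 8 months (0.145 to 0.328). The labels do not name these libraries as pairs, and correlations of this size do not show that they are. MKO and WT libraries differ in genotype, so they cannot share a mouse. Their differences of means are the same paired or not, their SE are unpaired, and members were not tested there. Alternatives were quantile normalization, a minimum mean of 10 normalised reads, moderation without a trend, limma-voom on recovered reads, a replicate block, only the groups compared, and each library left out. The members and the gene and marker lists were chosen with earlier results of these data known. Besides the members, genes are named that lead their list by p among those called, and the 2 closest in pattern over group means. The other list genes are given as counts. Positions are from GENCODE vM21 and promoters from RefSeq (GRCm38.p6).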

Additional observations from a re-analysis of the deposited data

Results flagged for a closer look

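Libraries that stood apart in their group of 4 are given here, where the gap to the nearest library divided by the whole range of the group exceeded the 95% critical value of Dixon for 4 samples. Of 128 groups tested 13 passed, while chance gives about 1 in 20, or 6.4. Of the 13 libraries 5 rest on at least 10 reads and 7 on 3 or fewer.

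Prom2 in WT non-tumour liver of group 1 at 8 months had its highest value in replicate 4, at 46.9 normalised reads against 1.34 to 2.44 (gap 0.9206 of the range). Reln in WT tumours had its lowest value in replicate 1, at 445 against 1018 to 1112 (0.9022). Fmn1 in SKO at 3 months was highest in replicate 3, at 77.6 against 20.6 to 25.5 (0.8648). Cyp21a1 in SKO tumours was highest in replicate 3, at 38.2 against 1.35 to 3.15 (0.8656). Adrb3 in SKO non-tumour liver at 8 months was lowest in replicate 4, at 69.0 against 134 to 149.5 (0.8534). Galnt6 in IKO at 3 months was highest in replicate 2, at 7.87 against 2.80 to 3.40 (0.8468).

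The remaining 7 are single reads or nearly so. Apela had 0 in replicate 1 of WT non-tumour liver at 8 months against 1.22 to 1.34 (0.9534). Apela in IKO at 1, 3 and 5 months and in WT at 3 months, and Prom2 in WT at 3 and 5 months, had 1 library above 0 and the other libraries at 0, a gap of 1 in each.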

How the results depend on the processing

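The number of members called changed by more than 1.5 times under few alternatives. With only the groups compared it was 4 in place of 2 for BKO against WT at 1 to 5 months, 1 in place of 0 for MKO, 0 in place of 3 for SKO against WT tumours and 1 in place of 2 for WT of group 1 at 8 against 1 month. With limma-voom the last of these was 0. With 1 library left out in turn, the count ranged from 0 to 1 for the changed tumour effect in IKO and in SKO. It had the same range for IKO against WT tumours and, where it moved, for WT of group 1 at 8 against 1 month. The cause was not tested. Apela in WT tumours of group 1 was not called with quantile normalization (adjusted p = 0.0541) or limma-voom (0.0740), Lpar3 there not with limma-voom (0.167) or only the groups compared (0.160), and Reln in IKO not with only the groups compared (0.0576). Prom2 in SKO was called with limma-voom (0.0258).

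Over all genes, only the groups compared gave 455 calls in place of 173 for MKO at 1 to 5 months. By that setting IKO tumours had 35 in place of 467 and SKO tumours 33 in place of 223. It gave 511 in place of 908 for WT of group 1 at 8 against 1 month. For the difference of the tumour effect, IKO minus WT, it gave 9 in place of 16. Without the 3-month stage MKO had 42. The difference of the tumour effect, SKO minus WT, had 4 calls in the main fit. It had 2 with the read minimum, 31 with quantile normalization and 14 with the replicate block. Limma-voom gave 0 and only the groups compared gave 1. With the replicate block 2 members were called in BKO at 1 to 5 months and 7 in WT tumours of group 1, as without it, and no count of members changed. In 26 of 28 pairs of groups same-numbered libraries did not all correlate above 0.1, and the others are the BKO tissues and MKO against WT non-tumour liver at 8 months. Apela and Lpar3 rest on few reads, and the minimum of 10 left them out.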
